A study of Homo sapiens with 2 samples.

Results

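The regions described here are the TP73 peaks nearest to the long-arm ends of the human autosomes in TL-Om1 cells. A peak was taken when its summit lay within 5 Mb of the highest summit coordinate on the same chromosome, and 1184 of the 18908 peaks of the list met that rule, or 6.39% of the 18520 peaks on the 22 autosomes. They were compared with the 3675 peaks whose summits lay 5 to 25 Mb from the same point on the same chromosomes. The highest summit stands for the chromosome end. The assembled end of each hg19 chromosome was not used, and it lies some unmeasured distance beyond that summit. The members were thus chosen by summit positions from the same list, and the set was proposed with earlier results of these data in view, so the number of peaks near the ends is given as a description.

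TL-Om1 is an established cell line of adult T-cell leukaemia. The study holds 1 ChIP library, made with the TP73 antibody ab14430, and 1 input library of whole cell extract without antibody, both from TL-Om1 cells grown in RPMI-1640 with 10% serum and antibiotics and fixed with formaldehyde for 10 min. Neither library was made from cells with a stated treatment or genetic change. Sequencing by DNBseq gave reads of 50 bases from 1 end of each fragment. With 1 ChIP library there is no replicate error, no p-value is given, and every interval covers counting error only and treats neighbouring peaks as independent. The labels give whole cell extract as the control, whereas all 18908 peak names contain the text IgG, so which library served as control is not settled here.

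TP73 is a transcription factor of the p53 family, whose members bind DNA as tetramers at paired copies of a short palindromic element and act on genes of cell-cycle arrest, cell death and development. The ends of chromosomes carry telomere repeats, and the subtelomeric DNA next to them mixes segments shared between chromosomes with gene-rich stretches of high GC content. Long-arm ends hold well-known genes, among them NOTCH1 on chromosome 9, a receptor of early T-cell development, NFATC1 on chromosome 18, a factor of T-cell activation, and AKT1 and the immunoglobulin heavy chain genes on chromosome 14. These genes are background only: no annotation of hg19 was used here, so no peak is assigned to a gene, and no peak sequence is shown.

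TP73 peaks were denser near the long-arm ends than farther in. The 1184 peaks within 5 Mb amounted to 10.8 peaks per Mb over 110 Mb, and the 3675 peaks at 5 to 25 Mb to 8.35 per Mb over 440 Mb. The ratio of these densities was 1.29 (exact 95% interval 1.21 to 1.38). Without the outermost peak of each chromosome, which is near the end by construction, the ratio was 1.26. Gene content, GC content and gaps of the assembly were not measured in these windows, and their part in the density was not tested.

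Pooled over the 22 autosomes, the higher density lay in the outer 2 Mb. The last Mb before the highest summit held 367 peaks over the 22 autosomes, or 16.7 per Mb (exact 95% Poisson interval 15 to 18.5), and 345 without the outermost peak of each chromosome. The next Mb held 274 peaks, or 12.5 per Mb (11 to 14). In the 20 bins of 1 Mb between 5 and 25 Mb the count ran from 128 to 264, with a mean of 183.75. Only the outer 2 bins stood above the highest of these 20. From 2 to 5 Mb the density was 8.23 per Mb, 0.985 times that at 5 to 25 Mb (95% interval 0.899 to 1.08), whereas the outer 2 Mb were 1.74 times as dense (1.60 to 1.90). Of the peaks of the 5 Mb windows, 641 or 54.1% therefore lay in their outer 2 Mb. Single chromosomes departed from this pooled profile in both directions. The outer 2 Mb held 19 of the 73 end peaks on chromosome 21 and 32 of the 44 on chromosome 22. The bin with the fewest peaks of all 25, the one from 5 to 6 Mb with 128, lay just beyond the windows.

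**Figure D1:**
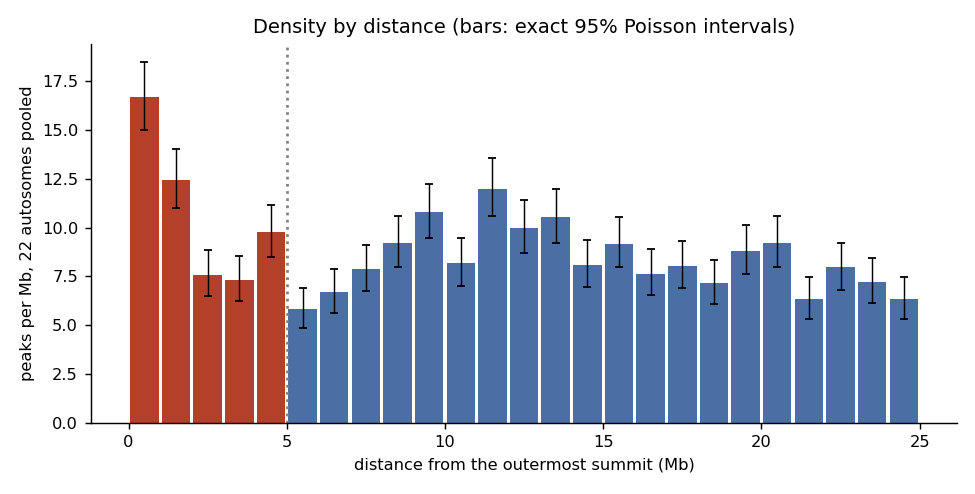
TP73 peaks per Mb, pooled over 22 autosomes, in bins of 1 Mb by distance from the outermost summit of each chromosome. Red bars lie within 5 Mb and blue bars at 5 to 25 Mb, with exact 95% Poisson intervals as error bars. The outermost bin stands at 16.7 per Mb and the next at 12.5, and the bins from 5 to 25 Mb run from 5.82 to 12.

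The chromosome ends differed widely from each other. The end of chromosome 9 was the densest, with 114 peaks in 5 Mb, or 22.8 per Mb (exact 95% Poisson interval 18.8 to 27.4). Chromosome 17 followed with 96 peaks, or 19.2 per Mb (15.6 to 23.4). Chromosomes 14 and 16 had 79 peaks each, or 15.8 per Mb (12.5 to 19.7). These 4 ends held 368 peaks, 31.1% of the set. The sparsest were the ends of chromosomes 6 and 10, with 19 peaks each, or 3.8 per Mb (2.29 to 5.93). Chromosome 4 had 26 peaks, or 5.20 per Mb (3.40 to 7.62), and chromosome 18 had 29, or 5.80 per Mb (3.88 to 8.33). The intervals of the 4 densest ends did not overlap those of the 4 sparsest, and both groups were picked for their counts. The median end held 45.5 peaks.

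Against its own interior, an end could be richer or poorer in TP73 peaks. The density ratio was above 1 on 14 autosomes and below 1 on 8, with a median of 1.22. Its exact 95% interval lay wholly above 1 on 9 autosomes, wholly below 1 on 4, and held 1 on the other 9, with no allowance for looking at 22 chromosomes. The highest ratio was on chromosome 3, where 75 peaks in the last 5 Mb gave 15 per Mb against 5.15 farther in, a ratio of 2.91 (2.13 to 3.96). On chromosome 9 the ratio was 2.29 (1.80 to 2.90), on chromosome 17 it was 2.18 (1.68 to 2.81), and on chromosome 2 it was 2.15 (1.59 to 2.88). Chromosomes 14, 13, 21, 16 and 8 also had intervals above 1, with ratios of 2.08, 1.92, 1.88, 1.70 and 1.62.

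Chromosomes 6, 12, 19 and 22 went the other way. On chromosome 6 the end had 3.8 peaks per Mb against 8.55 farther in, a ratio of 0.444 (0.261 to 0.716). On chromosome 12 the ratio was 0.584 (0.392 to 0.844). The short, gene-rich chromosomes 19 and 22 had the densest interiors of all, 13.4 and 13.8 peaks per Mb, and their ends held 8.20 and 8.80, with ratios of 0.612 (0.429 to 0.852) and 0.638 (0.453 to 0.879). Over the 22 autosomes, the numbers of peaks at the end and in the interior were weakly related (Spearman's rho = 0.18 across chromosomes of 1 library, given as a description).

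**Figure D2:**
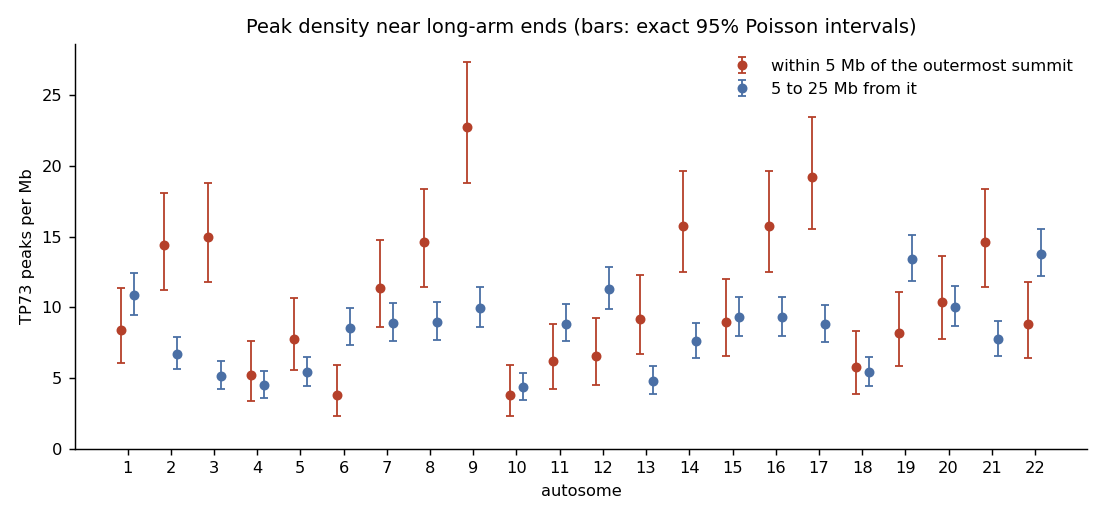
TP73 peaks per Mb on each autosome, within 5 Mb of the outermost summit (red) and 5 to 25 Mb from it (blue), with exact 95% Poisson intervals. The red points of chromosomes 9, 17, 3 and 2 stand above the blue ones, and those of chromosomes 6, 12, 19 and 22 below.

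The pattern inside the 5 Mb also varied. On chromosome 22, 30 of the 44 end peaks (68.2%) lay in the last Mb, so that its end was dense only at the tip. The shares in the last Mb were 55.2% on chromosome 18 (16 of 29 peaks), 51.1% on chromosome 15 (23 of 45) and 50.0% on chromosome 20 (26 of 52). They were 15.4% on chromosome 4 (4 of 26) and 19.2% on chromosome 21 (14 of 73). On chromosome 21 the outer 2 Mb held only 19 of the 73 peaks, so most lay 2 to 5 Mb from the outermost summit. Without the outermost peak, the last Mb still held more peaks than the mean Mb of the interior on 16 of 22 autosomes. Long empty stretches were part of the same windows. The longest interval between neighbouring summits was 1937.6 kb on chromosome 12, 1880.8 kb on chromosome 4, 1678.1 kb on chromosome 18 and 1659.9 kb on chromosome 22. On chromosome 21 no interval exceeded 362.4 kb.

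Single peaks near the ends were about as strong as peaks farther in. Strength is given by the number of ChIP reads over the summit, recovered from the deposited fold and p-value of each peak, and by the authors' fold, which divides the ChIP pileup by the control background. The end peaks had a median of 43 reads (95% order-statistic interval 41 to 45), with quartiles of 31 and 69, against 44 reads and quartiles of 32 and 75 in the interior. Their median fold was 11.3 (10.9 to 11.7) against 11.5, and their median width 256 bp (249 to 264) against 258 bp. All 3 interior medians lie inside the intervals of the end peaks. These intervals cover counting error only and treat neighbouring peaks as independent. Without replicate libraries, a difference in median strength or width was not tested. The end peaks together covered 360.3 kb of sequence.

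A higher share of strong peaks near the ends was not seen. A fold of at least 20 was reached by 257 end peaks, 21.7% (exact 95% binomial interval 19.4 to 24.2), against 23.3% in the interior and 23.0% over all 18908 peaks. At least 142 ChIP reads, which is 1 read for each base of the shortest peaks, covered 87 end peaks, 7.35% (5.93 to 8.98), against 8.24% in the interior and 8.36% over all peaks. Widths of 500 bp or more were found at 131 end peaks, 11.1% (9.33 to 13), against 9.82% in the interior and 8.85% over all peaks. The first 2 intervals hold the values of the interior and of all peaks. The third holds the interior value, while the share over all peaks lies below it.

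Strength showed little change with distance inside the windows. From the tip inwards, the 5 bins of 1 Mb had medians of 42, 45, 41, 41 and 43 ChIP reads, and across the 1184 peaks Spearman's rho of reads and distance was 0.02, given as a description. The share with at least 142 reads was 4.63% in the last Mb (17 of 367 peaks), the lowest of the 25 bins, and 8.76% in the next (24 of 274). In the bins from 5 to 25 Mb this share ran from 5.06% to 13.9%. The densest bin thus had the smallest share of strong peaks, by a margin of few peaks.

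**Figure D3:**
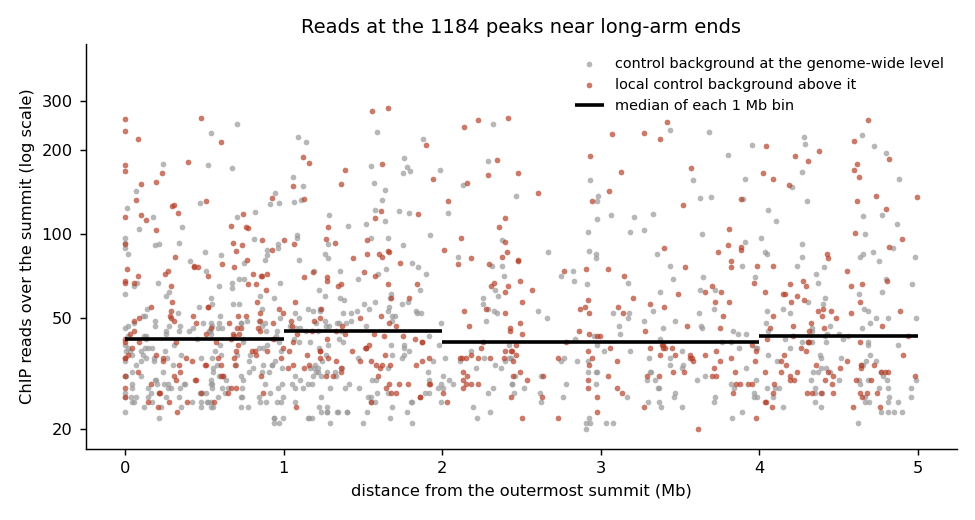
ChIP reads over the summit (log scale) of each of the 1184 peaks against distance from the outermost summit. Grey points had the genome-wide control background and red points against a higher local one, and black lines mark the median of each 1 Mb bin, which stays between 41 and 45 reads.

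The typical strength differed from end to end. The end of chromosome 14 had the highest median, 53 ChIP reads over 79 peaks, against 46 in its interior, and chromosome 21 had 50 against 47. The end of chromosome 19 had the lowest, 32 reads over 41 peaks against 46 in its interior. Chromosomes 11 and 20 followed with 37 reads each, against 41 and 45. The end had the higher median of reads on 9 autosomes, the lower on 11 and the same on 2. For the median fold the end was higher on 8 autosomes and lower on 14. Of the 87 peaks with at least 142 reads, chromosomes 14 and 17 had 10 each and chromosome 3 had 8. These were 12.7%, 10.4% and 10.7% of their end peaks, against 7.35% over all end peaks and 8.36% over the whole list. By share, chromosome 18 came first with 17.2% (5 of 29), then chromosome 1 with 14.3% (6 of 42). Chromosomes 6 and 10 had 0, but of only 19 peaks each.

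The 15 end peaks with the highest −log10 q-values lay on 10 chromosomes and had 222 to 275 ChIP reads and folds of 49.4 to 71.3. They were 491 to 1108 bp wide, all above the upper quartile of 361.5 bp over the end peaks, and 9 of the 15 had the genome-wide background. In the whole list they ranked between 94 and 284 by q-value, and 22 peaks of the interior ranked above the best of them. All values of these peaks come from the ranking that chose them.

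On chromosome 22, the peak at 50744151 to 50744706 led the set with a −log10 q-value of 376, a fold of 63.7 and 260 reads, at 477.7 kb from the outermost summit. Chromosome 3 held 3 of the 15. Its peak at 197121176 to 197121885 had the highest fold of all end peaks, 71.3, with 248 reads over the genome-wide background. At 196238841 to 196239350 the fold was 67.0 with 233 reads, and at 193548430 to 193548997 it was 63.9 with 222 reads. The end of chromosome 3 therefore combined the highest density ratio with 3 of the strongest peaks, although its median peak had 38 reads.

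Chromosome 17 also held 3. With 247 reads, the peak at 78835734 to 78836250 reached a fold of 71.0, that at 80063760 to 80064350 a fold of 64.1 with 223 reads, and that at 77733890 to 77734380 a fold of 49.4 with 252 reads. The last of these had more reads than the others but a lower fold, since its control background was 4 reads against the genome-wide 2.41. The same arithmetic applied on chromosome 14, where the peak at 105553228 to 105554335, 1108 bp wide, had 275 reads over 4 control reads and a fold of 53.8. A second peak of chromosome 14, at 103671264 to 103671842, had 236 reads over 2.41 and a fold of 67.9.

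The remaining peaks of the 15 each came from another chromosome. On chromosome 18, 258 reads and a fold of 63.2 were found at 78004046 to 78004600, which was itself the outermost peak of that chromosome. Chromosome 21 had a fold of 67.0 with 233 reads at 44369330 to 44369888, and chromosome 13 a fold of 66.1 with 230 reads at 114540112 to 114541148. The region on chromosome 9 from 136008767 to 136009563 showed a fold of 65.0 over 226 reads and lay in a dense group described below. The peaks on chromosome 1 at 244534949 to 244535626 and on chromosome 15 at 100273599 to 100274150 both had 257 reads, and folds of 58.0 and 55.5 over control backgrounds of 3.34 and 3.54 reads. By reads alone another peak came first, on chromosome 9 at 139001317 to 139002000, with 284 reads. Its fold was 30.9, since 8 control reads covered the same place. The value of 284 reads was the highest in the whole list, and the interior also reached it. Whether it is an upper limit set by the handling of duplicate reads was not tested. With such a limit, reads and folds of the strongest peaks would be compressed.

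The 22 outermost peaks, which set the ends, were ordinary in strength. They had 23 to 258 ChIP reads with a median of 44, and folds of 4.44 to 63.2 with a median of 11.2. Besides the peak of chromosome 18, those of chromosome 8 at 146288180 to 146288888, with 234 reads, and of chromosome 12 at 133613742 to 133614221, with 168, exceeded 142 reads. The weakest were on chromosome 3 at 197828469 to 197828631, with 23 reads, and on chromosome 20 at 62711217 to 62711425, with 26. Many stood alone: the nearest other summit was a median of 67.1 kb away, against 10.6 kb over all end peaks, which any outermost peak tends to exceed because it has neighbours on 1 side only. On chromosome 12 the nearest summit was 326.6 kb away, and on chromosome 19 it was 0.517 kb away.

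Some outermost peaks lay where the control was high. A control background of at least 5 reads was used at 4 of the 22 (18.2%), on chromosomes 4, 9, 14 and 17, against 56 of all 1184 end peaks (4.73%, exact 95% binomial interval 3.59 to 6.10), 6.26% of interior peaks and 5.47% of all peaks. On chromosome 4, the outermost peak at 190552536 to 190552736 had 36 ChIP reads over 7.13 control reads and a fold of 4.44. On chromosome 17, that at 81153425 to 81153614 had 41 reads over 7 and a fold of 5.12. The peaks of chromosome 9, with 92 reads over 6, and of chromosome 14, with 67 over 6, had folds of 13 and 9.48. The 3 lowest folds among all end peaks likewise came with raised control reads. They were 3.42 on chromosome 9 at 140083009 to 140083212, with 41 ChIP reads over 11 control reads, and 3.78 both on chromosome 20 at 62273297 to 62273511 and on chromosome 15 at 99965452 to 99965640, each with 30 reads over 7. Whether these places are repeated elsewhere in the genome was not tested.

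A larger share of end peaks than of interior peaks had the genome-wide background, the lowest that the caller used. That level, 2.41 control reads per 142 bp, held at 671 of the 1184 end peaks, 56.7% (exact 95% binomial interval 53.8 to 59.5), against 46.3% in the interior and 51.9% over all peaks. The share was 61.5% in the outer 2 Mb (57.6 to 65.3) and 51.0% from 2 to 5 Mb (46.7 to 55.3). The share differed between chromosomes. On chromosomes 1, 7 and 15 only 1 of 144 end peaks and 12 of 582 interior peaks stood at that level. On chromosome 12 the end stood at 69.7% and the interior at 14.2%. Chromosome 21 also differed widely, with 57.5% against 27.7%, and chromosome 22 went the other way, with 47.7% against 61.2%. Without chromosomes 1, 7 and 15 the shares were 64.4% and 54.6%, and without chromosome 12 as well, a choice made after seeing the data, 64.3% and 57.8%, so that the difference was 6.45 percentage points in place of 10.4. The share was higher at the end on 14 autosomes and lower on 8. The control library itself was not analysed here, and whether copy number has a part in these shares was not tested.

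**Figure D4:**
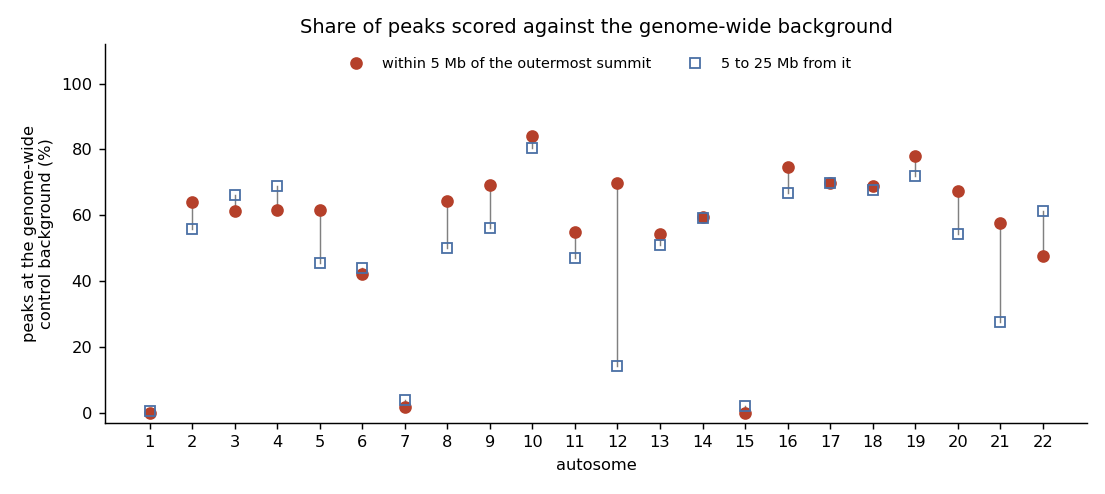
Share of peaks (%) scored against the genome-wide control background on each autosome, within 5 Mb of the outermost summit (red dots) and 5 to 25 Mb from it (open blue squares), joined by a grey line. Chromosomes 1, 7 and 15 lie near 0 in both windows, and on chromosome 12 the end stands at 69.7% against 14.2%.

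Pooled over the 22 autosomes, peaks near the ends more often had a close neighbour. Another summit lay within 1 kb of 214 end peaks, 18.1% (exact 95% binomial interval 15.9 to 20.4), against 13.8% in the interior and 13.3% over all peaks. Chromosome 2 had the highest share, 33.3% or 24 of 72 peaks, against 13.4% in its interior. Chromosome 9 followed with 31.6% or 36 of 114, against 19.1%. These 2 ends supplied a large part of the 214 peaks. The pooled difference without both of them was not computed. On chromosome 11 the share was 6.45% of 31. The share was higher at the end than in the interior on 15 autosomes and lower on 7. These peaks formed 116 pairs of adjacent summits with a median spacing of 616 bp, and in 26 pairs (22.4%) fewer than 142 bp lay between the peaks. Peaks with a close neighbour had a median of 40 reads and those without 43. After merging of peaks less than 500 bp apart, the share with a neighbour within 1 kb was 3.13% at the ends and 3.48% in the interior. Merging removes most such pairs by construction, so these values do not show what the higher share at the ends rests on. A denser set also has more summits within 1 kb of each other, and the part of the density in this share was not tested.

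Longer runs of peaks were counted by joining summits up to 10 kb apart, a limit chosen after the data were seen. The 1184 end peaks formed 825 such groups, and 607 peaks (51.3%) stood alone, against 56.1% of interior peaks. Groups of at least 3 peaks numbered 77 and held 295 peaks, 24.9% of the set, against 19.6% of interior peaks. A denser set forms longer groups at the same limit, so these shares are not independent of the density. The same shares over all peaks of the list are not given here. The longest group, on chromosome 8 from 145003135 to 145027167, had 13 peaks in 24.0 kb. The next, on chromosome 9 from 135988049 to 136025052, had 12 peaks in 37.0 kb, and the third, on chromosome 17 from 78228673 to 78237497, had 7 in 8.83 kb. The longest group of the interior had 8. Chromosome 14 had 2 groups of 6 peaks, from 106023555 to 106048548 and from 106143983 to 106167598, with medians of 74.5 and 74 reads, against a median of 43 over the set. The other groups of 6, on chromosome 9 from 137282439 to 137299531 and on chromosome 20 from 62359762 to 62372735, had medians of 39.5 and 35.5 reads.

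Crowding inside the ends was also described in windows of 100 kb, with no interior windows beside them. Of 1100 such lengths, 504 windows held an end peak, 222 of these held 1, and the median was 2. The window of chromosome 8 from 145000001 to 145100000 held the most, 17, all within 57.6 kb. Its peaks had 23 to 106 ChIP reads with a median of 50 and folds of 6.88 to 29.4, so it held no peak of 142 reads or more. Its strongest, at 145010579 to 145010947, had 106 reads, and that at 145022601 to 145023082 had 96. Another summit lay within 1 kb of 9 of the 17.

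The window of chromosome 2 from 241500001 to 241600000 held 11 peaks with 27 to 133 reads and a median of 55. Its highest pair stood side by side, at 241560872 to 241561297 with 133 reads and at 241564336 to 241564939 with 121. The window of chromosome 22 from 50900001 to 51000000 held 10 peaks with 25 to 178 reads and a median of 55.5, and its strongest, at 50979887 to 50980410, had a fold of 51.3. On chromosome 19, 9 peaks lay between 56110845 and 56186629. They had 21 to 191 reads with a median of 32, and the strongest, at 56154668 to 56155095, had 191 reads and a fold of 52.7. The peaks at 56112653 to 56112941 and 56116676 to 56117128 followed with 85 and 82 reads and folds of 24.6 and 23.8, and the other 6 had 21 to 55 reads. The highest number of reads thus ran from 106 in the window of chromosome 8 to 191 in that of chromosome 19, whereas the median was higher on chromosome 8, 50 against 32.

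**Figure D5:**
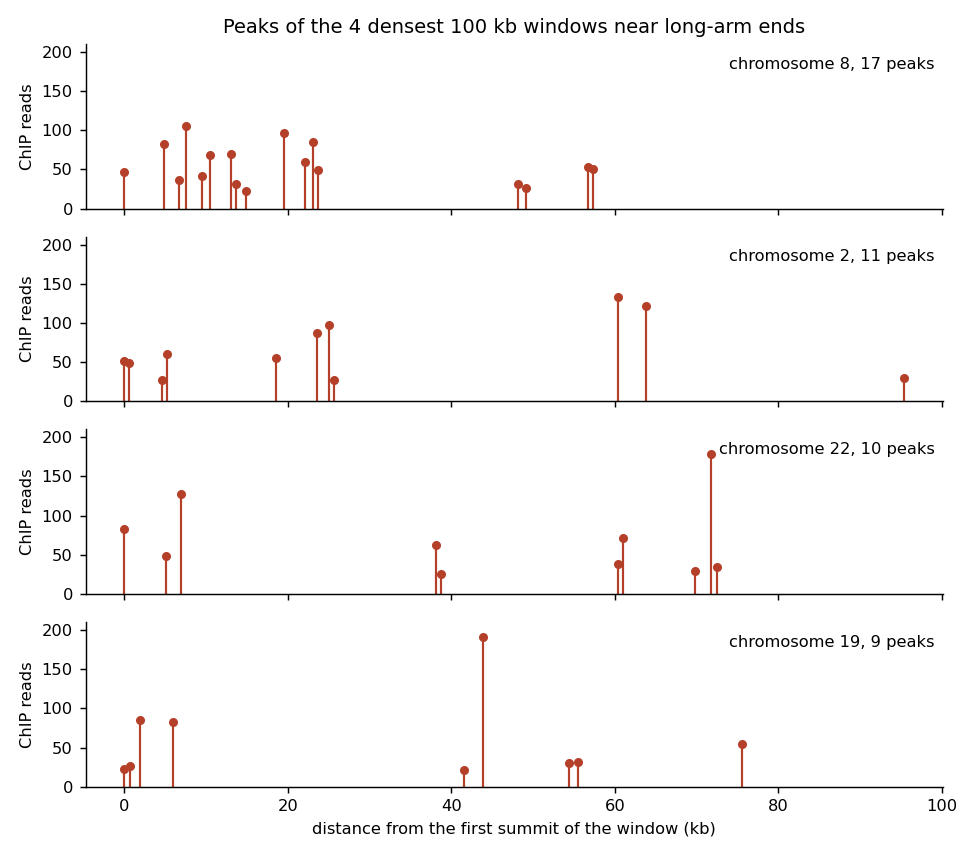
ChIP reads over each summit in the 4 densest windows of 100 kb, against distance from the first summit of the window in kb. The 17 peaks on chromosome 8 stay at or below 106 reads, whereas the windows on chromosomes 19 and 22 each hold a peak of 191 or 178 reads among weaker ones.

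A further 5 windows held 8 peaks each, and 3 of them were on chromosome 9. The window from 136000001 to 136100000 had its 8 peaks within 23.4 kb, around the strong peak at 136008767 to 136009563 with 226 reads. The window from 137200001 to 137300000 and that from 139900001 to 140000000 had no peak above 85 and 91 reads. On chromosome 17 the window from 78800001 to 78900000 held the peak with a fold of 71.0, and on chromosome 18 the window from 77900001 to 78000000 had its last summit 7.56 kb before the outermost summit of the chromosome and a highest value of 143 reads. The 9 windows held 87 peaks, with a median of 49 reads against 42 over the other end peaks, and 42.5% of them had a neighbour within 1 kb against 16.1%. The windows were picked for their number of peaks, so the second comparison is partly built in.

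Peaks beside the border at 5 Mb varied in strength on both sides of it. The 5 peaks just inside it lay 4982.0 to 4997.4 kb from the outermost summit, with 136, 30, 50, 83 and 31 reads. The 5 just outside lay 5002.1 to 5028.6 kb away, with 131, 75, 48, 94 and 48 reads. On chromosome 17 the border ran through a row of neighbouring peaks: the last inside, at 76155722 to 76156299, and the next outside, at 76151215 to 76151581, were 4.68 kb apart and had folds of 33.4 and 37.8.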

How the data were processed

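MACS2 2.1.1.2016030, Bowtie2 and SAMtools were used with hg19, per the submitters' processing notes; for parameters, order of steps and duplicate handling the sources used here say nothing. The authors' deposited peak list gives each peak's position, a fold (ratio of ChIP pileup to control background), the −log10 of its p-value and q-value, and a score. Start positions were converted to count from 1. ChIP reads and control background at each summit were solved from fold and p-value by the caller's formulas, fold = (pileup + 1) / (background + 1) and a Poisson tail of the pileup. The scale, 0.975 pileup units per read, was fitted on 300 peaks. All 18908 peaks had a solution within 0.01 of the −log10 p-value, and 25 had more than 1. The solving and the counting were tested on simulated data made with the same formulas, which does not test the formulas themselves.

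Density ratios have exact conditional Poisson intervals, shares exact binomial intervals and medians order-statistic intervals, all at 95%. With 1 library per group no test was run. The members, windows and measures were chosen with earlier results of these data known. Peaks were named as the 15 highest by −log10 q-value, the outermost of each autosome, the 3 lowest folds and the 5 densest windows of 100 kb, with ties; other peaks named were chosen after their values were seen. Alternatives were other windows (2 or 10 Mb at the end, 5 to 15 Mb as comparison), −log10 q-value of at least 10, fold of at least 5, at least 30 reads, merging below 500 bp, and chromosomes left out. Planned descriptions of promoters, motifs and genes need hg19 and are not reported here. Work was in Python 3.11.15 with scipy 1.17.1, numpy 2.4.6 and pandas 2.3.3; figures used matplotlib 3.10.9.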

Additional observations from a re-analysis of the deposited data

How the results depend on the processing

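The density ratio of 1.29 was 1.74 for an end window of 2 Mb, 1.12 for 10 Mb against 10 to 25 Mb, and 1.40 without chromosomes 1, 7, 12 and 15 (added after seeing the data), and kept above 1 in all settings run. The difference in the share of peaks at the genome-wide background, 10.4 percentage points, was 15.2 for an end window of 2 Mb and 6.45 without those 4 chromosomes. The difference in close neighbours, 4.28 points, was -0.348 after merging of peaks less than 500 bp apart, which removes most such pairs by construction. The difference in median fold, -0.14, was 0.429 among peaks with at least 30 reads; the cause was not tested. The other values of the 10 settings run per result stayed inside the interval of the main value. With each chromosome left out in turn, the density ratio ran from 1.23 (without chromosome 9) to 1.34 (without chromosome 19), the background difference from 7.91 (without chromosome 12) to 11.9 points, the neighbour difference from 3.14 to 4.82 points, and the differences in medians from -0.29 to 0.16 in fold, -2 to -1 in reads and -5.5 to -1 bp in width. Ends taken from the assembled sequence, and the alternatives for promoters and motifs, were not run. No library could be left out, and no paired analysis was possible because there is 1 ChIP library. The weakest end peak rests on 20 ChIP reads, and weaker sites that were not called are not analysed here.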

Other observations

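Short-arm ends were also dense in TP73 peaks. On the 17 autosomes other than chromosomes 13, 14, 15, 21 and 22, whose short arms hold little unique sequence, 912 peaks lay within 5 Mb of the lowest summit, or 10.7 per Mb, against 6.64 per Mb at 5 to 25 Mb from it. The ratio was 1.61 (exact 95% interval 1.49 to 1.74), and 1.28 (1.18 to 1.38) at the long-arm ends of the same 17 chromosomes. The ratio was above 1 on 13 of the 17 short arms and on 11 of the 17 long arms. The 2 ends of a chromosome could differ: chromosome 19 had 122 peaks at its short-arm end and 41 at its long-arm end, and chromosome 12 had 70 and 33, whereas chromosome 2 had 13 and 72. The median peak had 42 ChIP reads at the short-arm ends and 41 at the long-arm ends. The share of peaks at the genome-wide background was 61.5% at the short-arm ends against 61.8% farther in. At the long-arm ends of the same 17 chromosomes it was 59.8% against 47.9%, so the higher share was not seen at the short-arm ends. On some chromosomes 5 to 25 Mb from the lowest summit comes near the centromere or may cross it. Centromere positions were not used, and gaps in the assembly there were not removed.

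The long-arm end of chromosome X, outside the autosomes of the set, held 37 peaks in 5 Mb, or 7.40 per Mb, against 30 in the next 20 Mb, or 1.5 per Mb. The ratio of 4.93 (exact 95% interval 2.97 to 8.27) comes from few peaks. Their median was 39 ChIP reads in both windows, and 86.5% and 86.7% of them had the genome-wide background.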
